A study of Homo sapiens with 5 samples.

Results

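The tumor necrosis factor (TNF) receptors and their ligands were followed in parental HCC827 cells and in HCC827/GR cells, a gefitinib-resistant line made from them. The genes were chosen by name. They were every protein-coding gene named TNFRSF or TNFSF, together with TNF, LTA, LTB, LTBR, CD27, CD40, CD40LG, CD70, FAS, FASLG, NGFR, EDAR, EDA2R and RELT. Of the 46 genes considered, 35 had an entry of their own among the 37181 entries of the expression table, 22 of them receptors and 13 ligands. The entry with the highest mean was used for the 4 genes with more than 1 entry.

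HCC827 is a human lung adenocarcinoma cell line whose EGFR carries a deletion in exon 19, a change that activates the receptor, and gefitinib inhibits the kinase of that receptor. All 5 libraries came from this line or from cells derived from it, and whether each kept the deletion was not checked here. The 3 libraries of HCC827/GR (replicates 1, 2 and 3) came from cells kept under gradually rising gefitinib for more than 6 months, and the 2 libraries of HCC827/GS (replicates 2 and 3) came from the sensitive parental cells. HCC827/GR is 1 resistant line, and neither the labels nor the methods state that its replicates were separate cultures, so the p-values measure the spread between these libraries, which may be technical. Expression was given as FPKM, fragments scaled to transcript length and library size, which lets the levels of different genes be compared, but the number of reads is unknown. Library totals lay between 138854 and 167722 FPKM. Across genes, log2(FPKM + 1) correlated with an r of 0.913 to 0.927 between libraries of the same cells and of 0.851 to 0.873 between libraries of different cells, and genes are not independent replicates.

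TNF ligands are trimeric proteins, most of them anchored in the membrane, and they bring together receptors that share cysteine-rich repeats outside the cell. Receptors with an intracellular death domain, such as FAS, TNF receptor 1 and the TRAIL death receptors, can build complexes with FADD and caspase-8 that start apoptosis. Receptors without it bind TRAF adaptors and signal to NF-κB and JNK, and decoy receptors bind ligand without passing on a death signal. TNFRSF19, also called TROY, has no death domain, resembles the ectodysplasin receptor EDAR, acts as a co-receptor for Nogo in neurons and marks stem cells in several epithelia, where it is a target of WNT signalling. The study asked which mRNAs differ in cells that have become resistant to gefitinib, and it picked TROY out of these same libraries, so its difference here is not independent evidence for it. The study also measured TROY by RT-PCR and Western blot, knocked it down with siRNA and stained it in tumors of resistant patients. Those experiments are not part of the values examined here.

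Of the 35 members, 16 had a mean of at least 0.5 FPKM over all libraries and were tested, 12 receptors and 4 ligands. TNFRSF19 passed this filter only through HCC827/GR, with a mean of 5.68 FPKM there and 0.265 FPKM in HCC827/GS. TNFRSF11B passed it only through HCC827/GS, with means of 0.490 FPKM in HCC827/GR and 0.538 FPKM in HCC827/GS. A gene was called when the fold change on the scale of log2(FPKM + 1) was at least 2 or at most 0.5 with a p under 0.05 in limma. Among the tested members 1 was called higher in HCC827/GR (TNFRSF19), against 2.96% of all 16189 entries tested, and 2 were called lower (TNFSF9 and TNFSF15), against 3.97% of all entries. With a Benjamini-Hochberg adjusted p under 0.05 and no limit on the fold change, 2 members were higher (TNFRSF19 and the TRAIL decoy TNFRSF10D), against a background of 5.26%, and 3 were lower (TNFRSF6B, TNFSF9 and TNFSF15), against 5.71%. For 8 of the 16 the resistant and parental values did not overlap, with 4 higher and 4 lower in HCC827/GR, and the same held for 46.3% of all entries tested. An unadjusted p under 0.05 was reached by 6 of the 16 members and by 27.2% of all entries. The median log2 fold change of the tested members was -0.10, with 7 above 0 and 9 below, beside 0.00 for all entries. With 1 library left out, this median was -0.12, -0.09 and -0.04 without HCC827/GR replicates 1, 2 and 3. It was -0.06 and -0.0037 without HCC827/GS replicates 2 and 3. The median was -0.01 for the receptors and -1.20 for the 4 ligands. Adding 1 to the FPKM understates the change of low genes.

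**Figure D1:**
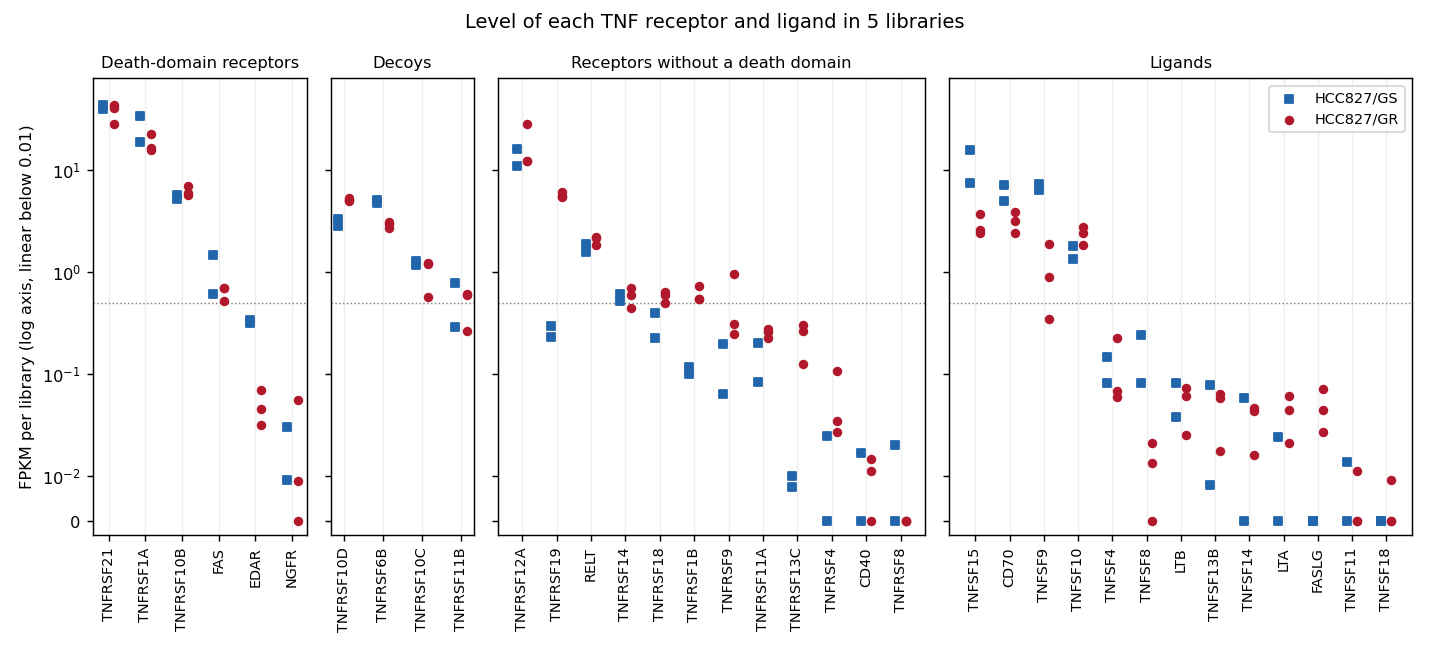
Level in FPKM of each of the 35 TNF receptors and ligands (horizontal axis) in every library, with blue squares for the 2 HCC827/GS and red circles for the 3 HCC827/GR libraries. The vertical axis is logarithmic and turns linear below 0.01 FPKM, and the dotted line marks 0.5 FPKM. TNFRSF19 stands between 5.43 and 6.08 FPKM in HCC827/GR and at 0.232 and 0.298 FPKM in HCC827/GS, while TNFSF9 and TNFSF15 lie lower in every HCC827/GR library.

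**Figure D2:**
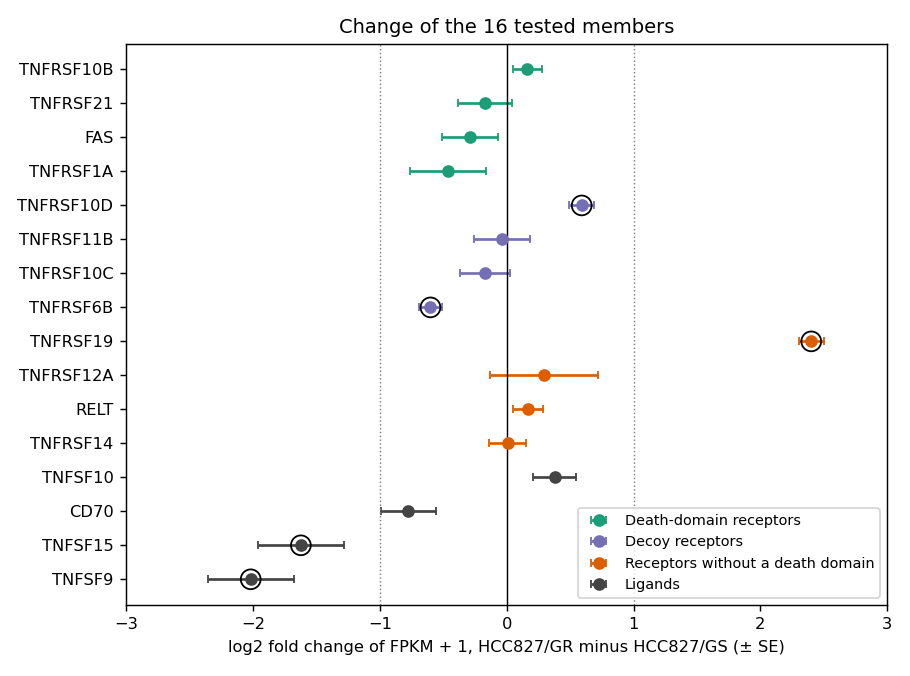
Log2 fold change of FPKM + 1 (HCC827/GR minus HCC827/GS, horizontal axis, bars are the standard error from limma) for the 16 tested members, coloured by class. Ringed points have an adjusted p under 0.05 and dotted lines mark a fold change of 2. TNFRSF19 lies at 2.40 and the next largest change is that of TNFSF9 at -2.02.

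TNFRSF19 mRNA was low in the parental cells and rose in the resistant ones. It was given as 5.55, 5.43 and 6.08 FPKM in HCC827/GR replicates 1, 2 and 3, and as 0.232 and 0.298 FPKM in HCC827/GS replicates 2 and 3, and values that follow keep this order of libraries within each group. Each resistant library lay far above both parental ones, and the libraries of a group lay close together. The means were 5.68 ± 0.344 FPKM (SD, n = 3) and 0.265 ± 0.0463 FPKM (SD, n = 2), a ratio of 21.5. The log2 fold change was 2.40 with a standard error of 0.098 and an adjusted p of 0.00176 in limma. An exact permutation test of the 3 against 2 values gave a two-sided p of 0.1, which is the smallest that this number of libraries allows. In bulk RNA, more cells that express a gene and more mRNA in each cell cannot be told apart. Among the 480 entries called higher it ranked 43 by log2 fold change, and by p it ranked 27 among all entries tested. The gene (entry MSTRG.8098) lies on chromosome 13 at 23570370-23676104, plus strand, in GENCODE 29 on GRCh38.

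The place of TROY among the receptors changed with its level. In HCC827/GS it ranked 14 and 13 among the 22 receptors, below genes such as RELT and TNFRSF14, and it took 0.246% and 0.271% of their summed FPKM. In each HCC827/GR library it ranked 5, behind TNFRSF21, TNFRSF1A, TNFRSF12A and TNFRSF10B, and took 5.40%, 4.70% and 7.04%. The summed receptor level itself overlapped between the groups, at 102.8, 115.6 and 86.3 FPKM in HCC827/GR against 94.5 and 110.0 FPKM in HCC827/GS. The rank of TROY in the resistant cells was close to those of TNFRSF10B (6.06, 5.71 and 7.03 FPKM) and TNFRSF10D (5.01, 5.16 and 5.32 FPKM), and the ranges of TNFRSF10B and TROY overlapped. The ranks leave out receptors joined to another gene. In HCC827/GR the entry that holds TNFRSF10A had 4.35, 7.05 and 5.63 FPKM, and that of LTBR 4.58, 4.72 and 4.27 FPKM.

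**Figure D3:**
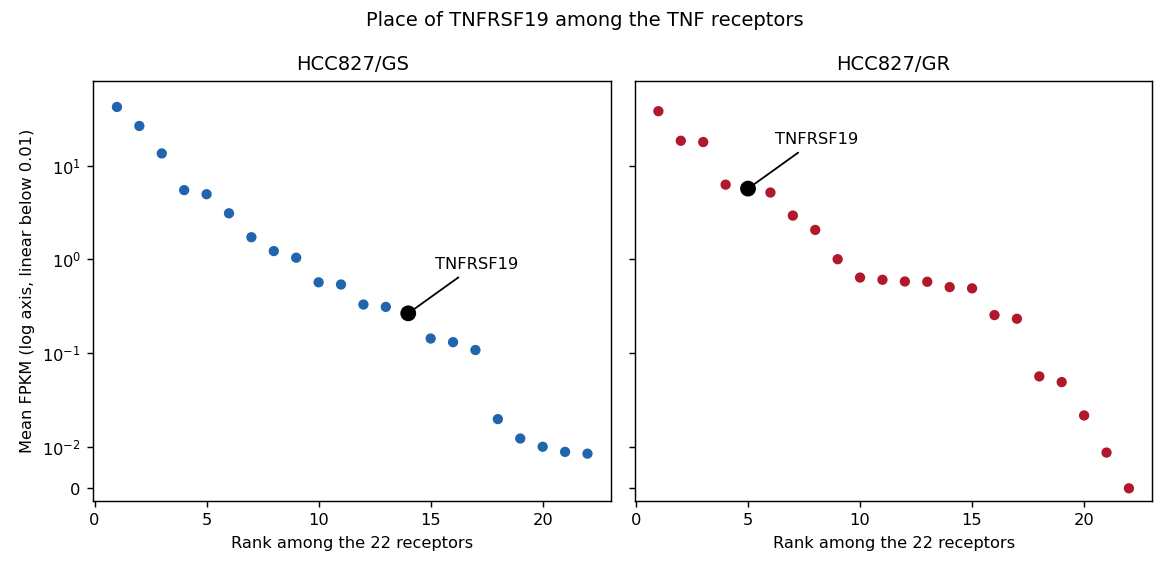
Mean FPKM (vertical axis, logarithmic, linear below 0.01) of the 22 receptors against their rank by that mean (horizontal axis), with HCC827/GS on the left and HCC827/GR on the right. TNFRSF19, the large black point, has rank 14 in HCC827/GS at 0.265 FPKM and rank 5 in HCC827/GR at 5.68 FPKM.

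The upstream sequences of 3 members are shown because their levels shifted widely: TNFRSF19, the gene called higher, TNFSF9, the ligand with the largest fall, and TNFRSF1B, a receptor below the filter whose groups did not overlap and which was picked once its values were known. The windows of 300 bases run from 250 bases before to 50 bases after the RefSeq start on GRCh38.p14, and 23 of the 35 members had one. The stretches printed end before the transcribed part or close to its start. Capitals mark, on either strand, the GC box GGGCGG, the TATA box TATAAA and the E-box CAGGTG, the last being the site that ZEB and SNAIL factors bind. They stand at chr13:23570162-23570369 for TNFRSF19, at chr19:6530776-6531025 for TNFSF9 and at chr1:12166741-12166990 for TNFRSF1B, all on the plus strand.
TNFRSF19: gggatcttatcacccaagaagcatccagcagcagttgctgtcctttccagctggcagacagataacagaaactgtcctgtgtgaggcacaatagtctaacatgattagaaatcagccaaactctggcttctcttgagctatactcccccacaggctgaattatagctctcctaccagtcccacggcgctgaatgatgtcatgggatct
TNFSF9: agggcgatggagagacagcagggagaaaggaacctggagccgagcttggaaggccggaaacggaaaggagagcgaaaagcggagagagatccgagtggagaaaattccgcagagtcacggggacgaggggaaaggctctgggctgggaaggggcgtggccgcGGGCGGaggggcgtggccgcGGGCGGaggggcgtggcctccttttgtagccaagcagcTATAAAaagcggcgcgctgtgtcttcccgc
TNFRSF1B: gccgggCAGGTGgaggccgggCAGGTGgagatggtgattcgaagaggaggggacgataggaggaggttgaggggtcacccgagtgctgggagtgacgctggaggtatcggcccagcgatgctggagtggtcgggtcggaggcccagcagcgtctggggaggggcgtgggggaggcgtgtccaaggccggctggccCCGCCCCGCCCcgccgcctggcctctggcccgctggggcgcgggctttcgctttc
The window of TNFRSF19 held neither these motifs nor the NF-κB consensus, and its GC content was 49% beside a median of 58.7% for all 35116 windows. TNFSF9 had a TATA box that begins at base -30 from the start and 2 GC boxes at -88 and -68, in a window with 63.3% GC. TNFRSF1B had 2 E-boxes and 2 GC boxes that share a base, in a window with 72% GC. Over the family, the NF-κB consensus was found in 4 of the 23 windows (17.4%, against 11.3% of all windows), namely those of LTB, TNFSF14, TNFRSF14 and TNFRSF9. The GC box stood in 12 (52.2%, against 45%), the TATA box in 3 (13%, against 11.5%) and the E-box in 8 (34.8%, against 20.6%). These matches describe the letters in the windows and not binding.

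The death-domain receptors TNFRSF21, TNFRSF1A, TNFRSF10B and FAS were expressed in both cells, and none of the 4 was called. In limma 0 had an unadjusted p under 0.05, where 27.2% of all entries did. In Ballgown's model it was also 0, and the share of all entries under that model is not given here. TNFRSF21, or death receptor 6, was the highest receptor of all, with 41.4, 44.3 and 28.7 FPKM in HCC827/GR and 44.3 and 40.3 FPKM in HCC827/GS. The groups overlapped, and the log2 fold change was -0.17 (SE 0.21, adjusted p = 0.673). TNFRSF1A, the main receptor for soluble TNF, was given as 22.8, 16.7 and 15.8 FPKM against 18.9 and 34.1 FPKM. The value of HCC827/GS replicate 3 stood above the rest, the groups overlapped, and the log2 fold change of -0.46 (SE 0.30, adjusted p = 0.393) became -0.05 without that library. TNFRSF10B, the TRAIL death receptor 5, had 6.06, 5.71 and 7.03 FPKM against 5.70 and 5.25 FPKM. Its groups did not overlap by a narrow margin, but the log2 fold change of 0.16 (SE 0.12) had an adjusted p of 0.435. FAS, the receptor for FAS ligand, was low at 0.694, 0.702 and 0.520 FPKM against 1.47 and 0.612 FPKM. HCC827/GS replicate 2 alone was high there, and the log2 fold change of -0.29 (SE 0.22, adjusted p = 0.472) became 0.02 without it.

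Of the 4 decoy receptors, TNFRSF10D rose, TNFRSF6B fell and the other 2 did not pass the test. TNFRSF10D, or TRAIL decoy receptor 2, which binds TRAIL but has a truncated death domain, rose from 3.36 and 2.84 FPKM in HCC827/GS to 5.01, 5.16 and 5.32 FPKM in HCC827/GR. The groups were well apart, with a log2 fold change of 0.59 (SE 0.10, adjusted p = 0.0312) and a ratio of means of 1.67. TNFRSF6B, or decoy receptor 3, a secreted protein that captures FAS ligand, LIGHT and TL1A, fell from 5.09 and 4.82 FPKM to 3.09, 2.74 and 2.96 FPKM. Its log2 fold change was -0.60 (SE 0.092, adjusted p = 0.0250), and its entry also joins transcripts of RTEL1, the gene that it overlaps, so part of the value may belong to RTEL1. Both differences had adjusted p-values above 0.05 when any 1 library was left out (0.0727 to 0.0992 for TNFRSF10D and 0.0685 to 0.111 for TNFRSF6B). TNFRSF10C, the other TRAIL decoy, was given as 1.20, 0.574 and 1.23 FPKM against 1.17 and 1.28 FPKM, in an entry that also joins AC107959.4 and AC107959.5. TNFRSF11B, or osteoprotegerin, which binds RANKL and TRAIL, was given as 0.263, 0.592 and 0.615 FPKM against 0.290 and 0.787 FPKM. Neither was called. The log2 fold change was -0.17 for TNFRSF10C (adjusted p = 0.643) and -0.04 for TNFRSF11B (adjusted p = 0.938). A second TNFRSF10C entry, not used, had 1.01 FPKM in HCC827/GR replicate 3, 1.25 FPKM in HCC827/GS replicate 2 and 0 elsewhere. With the TNFRSF10C entries summed, the log2 fold change was -0.32 (adjusted p = 0.628 in limma). The TRAIL receptor genes lie side by side on chromosome 8 and resemble each other, so reads may have been shared among them.

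Among the other receptors without a death domain only TNFRSF19 was called of the 4 that were tested. TNFRSF12A, the receptor for TWEAK, was high, with 12.4, 28.8 and 12.4 FPKM in HCC827/GR and 10.9 and 16.1 FPKM in HCC827/GS. HCC827/GR replicate 2 stood alone above the others, and the log2 fold change of 0.29 (SE 0.43, adjusted p = 0.716) turned to -0.09 without it. RELT, a TRAF-binding receptor, was given as 1.83, 2.21 and 2.14 FPKM against 1.56 and 1.88 FPKM (log2 fold change 0.17, adjusted p = 0.415). TNFRSF14, the receptor for LIGHT, was given as 0.601, 0.696 and 0.443 FPKM against 0.527 and 0.609 FPKM (log2 fold change 0.01, adjusted p = 0.979). Both overlapped between the groups in these entries. A second RELT entry, not used, had 1.07 FPKM in HCC827/GR replicate 1 and 0 in every other library. With the RELT entries summed, the log2 fold change was 0.32 (adjusted p = 0.244 in limma). TNFRSF21, TNFRSF1A and TNFRSF12A together made 66.0% to 77.6% of the receptor FPKM in HCC827/GR and 78.4% and 82.2% in HCC827/GS.

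Among the 13 ligands with an entry of their own, TNFSF15, TNFSF9 and CD70 made most of the FPKM in the parental cells. All 3 lay lower in every resistant library. TNFSF9, the ligand of the costimulatory receptor 4-1BB on T cells, fell from 7.33 and 6.44 FPKM in HCC827/GS to 1.87, 0.902 and 0.345 FPKM in HCC827/GR. The resistant libraries were spread widely but stayed below both parental ones, with a log2 fold change of -2.02 (SE 0.34, adjusted p = 0.0306). TNFSF15, or TL1A, the ligand of death receptor 3, fell from 15.8 and 7.48 FPKM to 2.58, 3.75 and 2.42 FPKM. The parental pair was far apart, the log2 fold change was -1.62 (SE 0.34, adjusted p = 0.0492), and the adjusted p lay between 0.0517 and 0.141 when 1 library was left out. For TNFSF9 the adjusted p was above 0.05 without HCC827/GR replicate 2 (0.0942), HCC827/GS replicate 2 (0.156) or HCC827/GS replicate 3 (0.130). CD70, the ligand of CD27, was given as 3.19, 2.41 and 3.88 FPKM against 5.05 and 7.21 FPKM. Its groups did not overlap, but the log2 fold change of -0.78 (SE 0.22) did not reach a fold of 2 and had an adjusted p of 0.0983.

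TNFSF10, or TRAIL, which induces apoptosis through its death receptors, was the only tested ligand with a log2 fold change above 0. It was given as 2.80, 2.42 and 1.87 FPKM in HCC827/GR and 1.81 and 1.35 FPKM in HCC827/GS. The groups came close without overlapping, and the log2 fold change of 0.38 (SE 0.17) had an adjusted p of 0.236. Summed over the 13 ligands, the level was 10.7, 9.93 and 8.84 FPKM in HCC827/GR and 30.3 and 23.0 FPKM in HCC827/GS. TNFSF15, TNFSF9 and CD70 made 92.9% and 91.9% of that sum in the parental cells and 71.2%, 71.1% and 75.2% in the resistant cells. The sum of these 13 ligands was thus lower in each resistant library, whereas the receptor sum was not. The ligand sum leaves out TNF and CD40LG, which had no transcript, and TNFSF12 and TNFSF13. Their entry, joined to CD68 and further genes, had 34.7, 32.9 and 38.2 FPKM in HCC827/GR and 30.8 and 38.9 FPKM in HCC827/GS. The part of TNFSF12 and TNFSF13 in it is unknown.

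Of the 19 members below the filter, 10 stayed under 0.1 FPKM in every library and 9 reached at least 0.1 FPKM. The first were NGFR, FASLG, LTA, LTB, TNFSF11, TNFSF13B, TNFSF14, TNFSF18, CD40 and TNFRSF8. FASLG was listed at 0 in both parental libraries and reached 0.0707 FPKM in HCC827/GR. The second, with their highest value in any library, were TNFRSF9 (0.960 FPKM), TNFRSF1B (0.727 FPKM), TNFRSF18 (0.635 FPKM), EDAR (0.342 FPKM), TNFRSF13C (0.303 FPKM), TNFRSF11A (0.276 FPKM), TNFSF8 (0.244 FPKM), TNFSF4 (0.224 FPKM) and TNFRSF4 (0.107 FPKM). The groups did not overlap for 9 of the 19, with 7 higher and 2 lower in HCC827/GR, whereas 23.5% of all entries with a mean above 0 and under 0.5 FPKM did not overlap. At these levels a few reads may decide a value, and how many is unknown.

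A few of these low members are given in full and were picked once their values were known. EDAR, the ectodysplasin receptor that TROY resembles, was given as 0.0453, 0.0701 and 0.0313 FPKM in HCC827/GR and 0.316 and 0.342 FPKM in HCC827/GS. It was thus lower in each resistant library, the opposite of TROY, with a mean 6.73 times higher in the parental cells. When all entries were tested without the filter it was the only one of the 19 with an adjusted p under 0.05, at a log2 fold change of -0.34 (SE 0.042, adjusted p = 0.0345) that is far from a fold of 2 on this scale. TNFRSF1B, the second TNF receptor, which has no death domain, was given as 0.544, 0.544 and 0.727 FPKM against 0.0990 and 0.116 FPKM. The ratio of the means was 5.63, and without the filter the log2 fold change was 0.53 (SE 0.11, adjusted p = 0.0982). TNFRSF13C, the BAFF receptor of B cells, was given as 0.125, 0.303 and 0.267 FPKM against 0.00996 and 0.00754 FPKM (adjusted p = 0.150 without the filter). TNFSF8, the CD30 ligand, had 0.0812 and 0.244 FPKM in HCC827/GS and no more than 0.0212 FPKM in HCC827/GR (adjusted p = 0.223 without the filter). These last 3 did not pass the test.

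Another 11 genes of the family had no entry of their own. TNF, CD40LG, EDA2R, TNFRSF13B and TNFRSF17 had no transcript in the table used here, so the level of TNF itself is not known from it. The other 6 were joined with a neighbouring gene, and their values cannot be separated from it. The entry that holds LTBR, the lymphotoxin beta receptor, had 4.58, 4.72 and 4.27 FPKM in HCC827/GR and 5.88 and 7.09 FPKM in HCC827/GS. The groups did not overlap, with a log2 fold change of -0.43 (SE 0.11, adjusted p = 0.0814). The entry that joins TNFRSF10A, the TRAIL death receptor 4, to AC100861.2 overlapped between the groups (log2 fold change -0.14, adjusted p = 0.746). The entry of CD27 and TAPBPL had a log2 fold change of -0.38 (adjusted p = 0.0996), that of TNFRSF25 and PLEKHG5 had 0.05 (adjusted p = 0.765), and that of TNFSF12, TNFSF13, CD68 and further genes had 0.02 (adjusted p = 0.938). None of these 5 entries was called by limma or Ballgown's model. In limma 2 had an unadjusted p under 0.05, where 27.2% of all entries did. In Ballgown's model 1 did, and the share of all entries under that model is not given here.

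The genes through which these receptors signal were read from 4 lists with 88 genes in all, of which 74 were tested. Among them 4 were called higher and 4 lower, against the 2.96% and 3.97% of all entries, and the median log2 fold change was 0.07. The lists held the receptor adaptors, the components of NF-κB, genes that TNF induces and the EDA, Nogo and WNT partners of TROY.

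Of the 28 tested adaptors, 14 had a positive and 14 a negative log2 fold change, and 2 were called, both lower. XIAP, an inhibitor of caspases, fell from 14.2 and 15.3 FPKM in HCC827/GS to 5.82, 6.60 and 5.54 FPKM in HCC827/GR. The groups were far apart, with a log2 fold change of -1.18 (SE 0.11, adjusted p = 0.00862). CASP10, a caspase of the death-receptor complex, was given as 0.904, 1.59 and 0.947 FPKM against 4.71 and 2.23 FPKM, with a log2 fold change of -1.01 (SE 0.30) and an adjusted p of 0.108. The other genes of that complex were not called. FADD had a log2 fold change of -0.10 (adjusted p = 0.699), CASP8 of -0.07 (adjusted p = 0.738), RIPK1 of -0.06 (adjusted p = 0.762), and TRADD of -0.26 (adjusted p = 0.236). For CFLAR, the inhibitor of caspase-8, the log2 fold change was -0.54 (adjusted p = 0.123). CYLD, a deubiquitinase that restrains NF-κB signalling, rose from 6.54 and 5.95 FPKM to 11.3, 13.1 and 12.9 FPKM (log2 fold change 0.89, adjusted p = 0.0145). TRAF2, the adaptor that TNF receptors recruit with TRADD, fell from 3.998 and 4.08 FPKM to 2.36, 2.49 and 2.60 FPKM (log2 fold change -0.53, adjusted p = 0.0298). TRAF1 and TRAF5 lay higher in every resistant library without passing the test. TRAF1 had a log2 fold change of 0.87 (adjusted p = 0.0808), TRAF5 of 0.59 (adjusted p = 0.110) and TRAF6, an adaptor of several TNF receptors, of 0.05 (adjusted p = 0.836).

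None of the 17 tested NF-κB components was called, and 4 had an unadjusted p under 0.05 in limma, where 27.2% of all entries did. In Ballgown's model 2 did, and the share of all entries under that model is not given here. The log2 fold change was positive in 12 and negative in 5, with a median of 0.07. NFKBIA, the inhibitor IκBα that NF-κB induces, rose from 18.7 and 18.3 FPKM to 31.8, 26.8 and 31.1 FPKM (log2 fold change 0.66, SE 0.11, adjusted p = 0.0309). NFKBIZ, an atypical nuclear inhibitor of the same family, fell from 7.23 and 7.83 FPKM to 4.43, 4.89 and 3.53 FPKM (log2 fold change -0.70, SE 0.14, adjusted p = 0.0478). For the subunits, the log2 fold change was 0.06 in NFKB1 (adjusted p = 0.846) and 0.32 in RELA (adjusted p = 0.129). It was larger in NFKB2 at 0.61 (adjusted p = 0.224) and in RELB at 0.67 (adjusted p = 0.277). The groups did not overlap for RELA and NFKB2 but overlapped for NFKB1 and RELB, and REL had no entry of its own.

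Of the 25 tested genes that TNF is known to induce, 4 were called higher and 1 lower, against 2.96% and 3.97% of all entries. The log2 fold change was positive in 18, with a median of 0.61, and in 8125 of all 16189 entries. The neutrophil chemokine CXCL8 rose from 0.540 and 1.20 FPKM to 3.10, 4.41 and 5.88 FPKM (log2 fold change 1.54, SE 0.28, adjusted p = 0.0370). The cytokine IL6 rose from 0.890 and 0.879 FPKM to 6.25, 3.32 and 7.44 FPKM (log2 fold change 1.77, SE 0.31, adjusted p = 0.0336). In both genes the lowest resistant library stood above the higher parental one. CXCL1 was called with a log2 fold change of 1.23 (SE 0.27, adjusted p = 0.0570), and the gelatinase MMP9 with 2.15 (SE 0.81, adjusted p = 0.179). MMP9 varied widely, at 12.3, 1.93 and 15.9 FPKM against 1.14 and 0.779 FPKM. The adhesion molecule ICAM1 did not reach a fold of 2 but rose from 23.5 and 28.2 FPKM to 44.7, 45.0 and 56.6 FPKM (log2 fold change 0.89, SE 0.16, adjusted p = 0.0341). PLAU, or urokinase, was called lower, at 31.7, 39.0 and 55.8 FPKM against 75.4 and 93.6 FPKM (log2 fold change -1.02, SE 0.27, adjusted p = 0.0857). The genes are also induced by other signals, and no TNF value was at hand to set beside them.

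**Figure D4:**
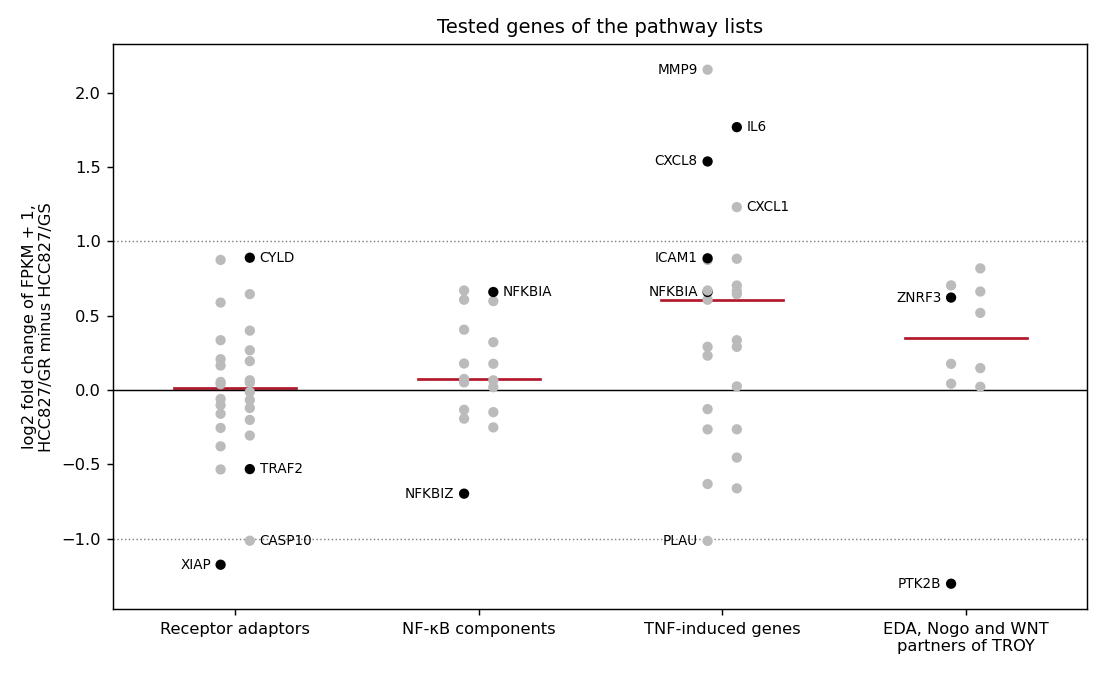
Log2 fold change of FPKM + 1 (HCC827/GR minus HCC827/GS, vertical axis) of each tested gene of the 4 pathway lists (horizontal axis). Black points have an adjusted p under 0.05, red lines are medians, dotted lines mark a fold change of 2, and NFKBIA stands in the NF-κB and the TNF-induced lists. The medians are 0.01 for the adaptors, 0.07 for the NF-κB components, 0.61 for the TNF-induced genes and 0.35 for the partners of TROY.

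Among the genes tied to TROY, 10 of 17 could be tested, and 9 of them had a positive log2 fold change, beside 8125 of all 16189 entries. The exception was PTK2B, or PYK2, a kinase reported to bind TROY in glioma cells. It fell from 3.10 and 2.85 FPKM to 0.555, 0.619 and 0.656 FPKM (log2 fold change -1.30, SE 0.10, adjusted p = 0.00628) and was the only gene of this list called. ZNRF3, a membrane ubiquitin ligase that WNT signalling induces and that removes WNT receptors, rose from 2.13 and 2.33 FPKM to 4.005, 4.45 and 3.49 FPKM (log2 fold change 0.62, SE 0.12, adjusted p = 0.0409). RTN4, which encodes Nogo, had a log2 fold change of 0.82 (SE 0.23, adjusted p = 0.102), and TGFBR1, a TGFβ receptor that TROY can bind, had 0.66 (SE 0.20, adjusted p = 0.119). EDA, the ligand of EDAR, lay below the filter at 0.0454, 0.216 and 0.0456 FPKM against 0.273 and 0.232 FPKM, and EDARADD, the adaptor of EDAR, did not exceed 0.0387 FPKM. RTN4R, the Nogo receptor, had 0.180, 0.390 and 0.384 FPKM against 0.695 and 0.486 FPKM, and MAG, another of its ligands, did not exceed 0.0375 FPKM in HCC827/GR against 0.430 and 0.276 FPKM in HCC827/GS. Both were below the filter and lay lower in every resistant library. LINGO1, LGR5 and AXIN2 had no entry of their own.

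The genes on either side of the called ligands did not all move with them. TNFSF9 and CD70 lie on chromosome 19 at 6530999-6535928 and 6583183-6604103. Of the 10 tested protein-coding genes nearest to TNFSF9, 5 on each side and CD70 among them, 2 were called higher (C3 at 2.58 and TUBB4A at 1.05) and 2 lower (CRB3 at -1.27 and SH2D3A at -1.11). Over all entries tested, 2.96% were called higher and 3.97% lower. TNFSF15 lies on chromosome 9 at 114784635-114806126, and of its 10 neighbours 1 was called higher (PAPPA, 2.05) and 0 lower. TNC, the nearest tested gene on its far side, had a log2 fold change of -0.64 (SE 0.13, adjusted p = 0.0481), short of a fold of 2. The family member TNFSF8 lies between TNFSF15 and TNC, at 114893343-114930595, and was below the filter, with lower values in every resistant library.

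**Figure D5:**
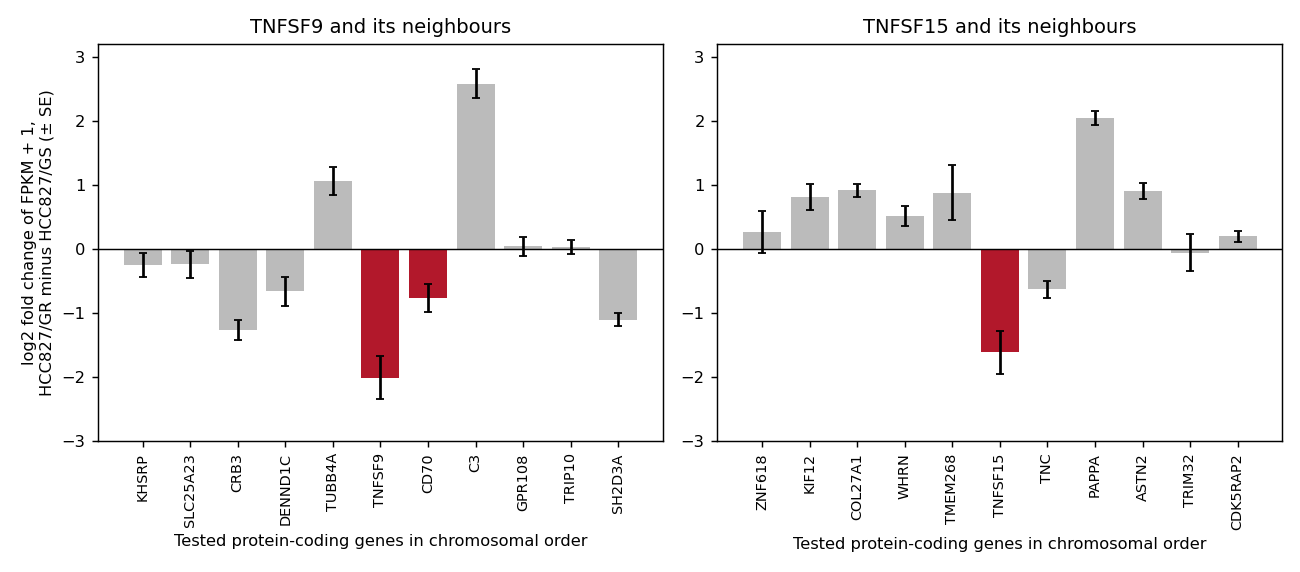
Log2 fold change of FPKM + 1 (HCC827/GR minus HCC827/GS, vertical axis, bars are the standard error) of TNFSF9 and CD70 (left, red) and TNFSF15 (right, red) and of the tested protein-coding genes next to them in chromosomal order. The neighbours of TNFSF9 include C3 at 2.58 beside CRB3 at -1.27, and those of TNFSF15 run from -0.64 (TNC) to 2.05 (PAPPA).

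Markers of the cells were read beside these values. Epithelial markers stayed present in both cells, but their summed level was 442.7 to 572.7 FPKM in HCC827/GR and 1063 to 1182 FPKM in HCC827/GS, with 4 of 5 at an adjusted p under 0.05, all lower (EPCAM, KRT18, KRT19 and CDH1). Of all entries tested, 5.71% were lower at that adjusted p. Leukocytes are the usual source of several TNF family members. Of the 8 leukocyte markers with an entry, 0 passed the filter, and their sum was 0.266 to 0.568 FPKM in HCC827/GR and 1.41 to 1.47 FPKM in HCC827/GS, most of the latter CD79A. Fibroblast markers summed to 0.807 to 1.17 FPKM and 0.792 to 1.03 FPKM. Of the endothelial markers, PECAM1 was listed at 0 in every resistant library and at 4.34 and 3.32 FPKM in the parental ones, while the sum of PECAM1, CDH5 and VWF did not exceed 0.0333 FPKM in HCC827/GR. The part of these marker levels in the differences of the TNF family was not tested.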

How the data were processed

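RNA-sequencing data of HCC827/GR (3 libraries) and HCC827/GS (2 libraries) were examined as the FPKM values that the authors deposited. Per the study's methods, Cutadapt trimmed the reads, FastQC checked them, Bowtie2 and TopHat2 mapped them, StringTie assembled transcripts and gave FPKM, and Ballgown compared the groups. The submitters' processing notes name hg18. The labels describe a small-RNA kit with single-end reads, whereas the methods describe rRNA-depleted RNA and paired ends, and the values cannot settle read layout. The table gives no coordinates and no counts. Positions came from GENCODE 29 on GRCh38 through the transcript identifiers, of which 135164 of 135299 were found, and promoters came from RefSeq on GRCh38.p14. Of the 6 FPKM columns, 1 matched no sample and was left out.

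Groups were compared on log2(FPKM + 1) by limma 3.58.1 under R 4.3.3 (two-sided, moderated with a mean-variance trend), and p-values were adjusted after Benjamini-Hochberg over the 16189 entries that averaged 0.5 FPKM or more. A call needed a fold change beyond 2 in either direction (0.5 when lower) with a p under 0.05, the limits of the study. The limma fit was tested on simulated data with independent normal noise, and the outcome is not given here. Python 3.11.15 with pandas 2.3.3 and scipy 1.17.1 was used otherwise. The genes next to TNFRSF19 are not reported here. Depth is unknown, so no counting error could be given.

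Values were given for TNFRSF19, for members past either threshold, for the highest 5 receptors and 3 ligands, for the tested TRAIL, TNF, FAS, TWEAK and EDA genes, for list genes called, and for their partners. Members, lists and tests were chosen with earlier results of these data known. Alternatives were another pseudocount (0.1), the filter removed or raised to 1 FPKM, median-ratio or quantile scaling, limma without the trend, Ballgown's model, a replicate block, summed entries, the ratio of means, and each library left out. Ballgown's model was written out anew and fitted to the tested entries, without its package.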

Additional observations from a re-analysis of the deposited data

How the results depend on the processing

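The count of members called higher was 1 under all 15 alternatives, and the count called lower was 2 under 14 of them and 1 with Ballgown's model. The TNFRSF19 log2 fold change lay between 2.35 and 4.42 over the alternatives. Its adjusted p was 0.113 with Ballgown's model (log2 fold change 2.35) and 0.124 with the replicate block (2.42), and at most 0.0256 with each library left out, where the log2 fold change ranged from 2.36 to 2.44. Ballgown's model was refitted here without the package. The study's own Ballgown run listed TNFRSF19 at the same log2 fold change of 2.35 with a q value under 0.05. The 4 genes of the pathway lists called higher became 7 with a pseudocount of 0.1, 7 with the ratio of mean FPKM and 1 with Ballgown's model, and 3 to 5 with a library left out. The 4 called lower became 2 with the replicate block, and 2 to 4 with a library left out, the 2 being without HCC827/GR replicate 1. The causes were not tested. The replicate block fits the replicate number, and since HCC827/GR replicate 1 has no partner it rests on 4 libraries. Between libraries of the same number, deviations from the group means correlated at 0.033 for number 2 and 0.015 for number 3, so little shared deviation was seen. With 2 parental libraries the deviations mirror each other, so this cannot decide whether the numbers paired the libraries. An adjusted p under 0.05 was lost in 10 of 15 alternatives by TNFSF15, in 8 by TNFRSF10D and in 7 each by TNFSF9 and TNFRSF6B, with no change of direction in these 4 genes. The ratio of mean FPKM, 1 of the 15, replaces only the fold change and keeps the p-values of the main fit, so no adjusted p could be lost under it. The log2 fold changes of FAS, TNFRSF11B, TNFRSF12A, TNFRSF14 and TNFRSF21, none of them called, changed sign under at least 1 alternative. With a mean of at least 1 FPKM required, FAS, TNFRSF11B and TNFRSF14 gave no value. FPKM holds no read number, so what depth limits cannot be stated for the low members.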
